A study of Mus musculus with 36 samples.

Results

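Cxcl1, Cxcl2, Cxcl3, Cxcl5 and Ppbp encode secreted chemokines of the CXC family that draw neutrophils. The 5 genes were taken by symbol from the 750 endogenous genes of a mouse immune gene panel, and 5 of 5 were present and passed the filter on low counts. They were chosen from their levels in these 36 tumours, scaled to housekeeping genes, across all 8 treatment labels, so their levels and their differences between arms are given as a description. RNA was counted on the nCounter PanCancer Immune Profiling Panel, in which barcoded probes are hybridised to RNA and counted one by one with no amplification.

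Each tumour grew from KPfC BMF-A3 cells, a mouse pancreatic cancer line, placed into the pancreas of a wild-type C57BL/6 mouse. Treatment ran from day 10 until day 35, when every tumour was taken. TP-0903 inhibits Axl, a receptor tyrosine kinase, and was given orally at 25 mg/kg each day. Gemcitabine, a nucleoside analogue that blocks DNA synthesis, was injected into the peritoneum at 25 mg/kg 3 times a week. Mice on anti-PD1 received the blocking antibody RMP14-1 at 5 mg/kg, also into the peritoneum, 2 times a week. The arms were TP-0903 (n = 4), Gemcitabine (n = 4), Anti-PD1 (n = 4), TP-0903+Gemcitabine (n = 5), TP-0903+anti-PD1 (n = 4), Gemcitabine+anti-PD1 (n = 4), TP-0903+Gemcitabine+anti-PD1 (n = 5) and Vehicle (n = 6). All arms rest on 1 tumour line, and age and sex of the mice are not given in the sources used here. The labels name separate tumours without saying which came from which animal, so p-values measure the spread between these samples.

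As background, these chemokines carry a glutamate-leucine-arginine motif ahead of their first cysteines and act on neutrophils through the receptor Cxcr2. Tumour cells, fibroblasts, endothelial cells and macrophages make Cxcl1, Cxcl2 and Cxcl3 soon after signals such as interleukin 1 and tumour necrosis factor, which act through NF-kB. Cxcl5 is made mainly by epithelial cells, and Ppbp, the platelet basic protein, by megakaryocytes and platelets. In pancreatic tumours of mice, Cxcr2 ligands are known to bring in neutrophils and other myeloid cells that restrain T cells.

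All 5 genes lie on mouse chromosome 5, where protein-coding genes follow each other in the order Cxcl5, Ppbp, Pf4, Cxcl3, Cxcl15, Cxcl1 and Cxcl2. The 120 bases before the start of each gene are shown for the 4 members matched in the RefSeq promoter table (build GRCm38.p6), because Cxcl1, Cxcl2 and Cxcl3 share a run of 11 bases there that Ppbp does not hold. Capitals mark this run, GGGAATTTCCC, which a search found as the longest one common to the 3 stretches and which resembles the sites that NF-kB is known to bind. The stretches lie on the plus strand at chr5:90891125-90891244 for Cxcl1, chr5:90903779-90903898 for Cxcl2, chr5:90785981-90786100 for Cxcl3 and chr5:90768398-90768517 for Ppbp.
Cxcl1: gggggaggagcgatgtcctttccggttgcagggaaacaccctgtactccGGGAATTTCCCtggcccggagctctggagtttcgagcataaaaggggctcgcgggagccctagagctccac
Cxcl2: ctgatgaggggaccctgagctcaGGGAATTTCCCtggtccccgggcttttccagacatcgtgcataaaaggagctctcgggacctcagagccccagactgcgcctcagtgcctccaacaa
Cxcl3: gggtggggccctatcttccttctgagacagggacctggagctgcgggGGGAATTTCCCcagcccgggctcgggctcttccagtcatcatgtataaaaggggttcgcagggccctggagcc
Ppbp: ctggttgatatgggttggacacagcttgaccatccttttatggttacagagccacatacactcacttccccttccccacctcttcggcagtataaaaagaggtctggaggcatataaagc
The first base of the run lay 71 bases before the start of Cxcl1, 97 before that of Cxcl2 and 73 before that of Cxcl3, on the plus strand in each. Within windows of 300 bases, 250 before and 50 after a start, 14 of 32851 RefSeq windows held it on either strand (0.043%). Among the tested panel genes with a window, 4 of 498 held it, namely Cxcl1, Cxcl2, Cxcl3 and Il16. A match describes the letters of the window only. Cxcl5 had no entry in the promoter table.

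Total counts per tumour ran between 115973 and 552876. A gene was counted as above background in a tumour where its raw count exceeded the mean of the lane's negative controls by more than 2 SD, a threshold of 8.21 to 26.3 counts. Values below are scaled counts, that is, raw counts divided by the lane's housekeeping factor, and they are compared only within a gene, never between probes. Marker sums add scaled counts over probes, so genes with high counts weigh most in them. The lanes came from 3 cartridges of 12 lanes. The first held all Vehicle and TP-0903 tumours and 2 Gemcitabine tumours, the second held 2 Gemcitabine, 4 Anti-PD1, 5 TP-0903+Gemcitabine and 1 TP-0903+anti-PD1 tumours, and the third held the rest.

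The libraries labelled TP-0903 replicate 3 and Vehicle replicate 3 stood apart from the other pancreatic tumours. In TP-0903 replicate 3 the summed level of 10 liver markers was 189755, against 154 to 4504 in the other tumours. Its 4 measured epithelial markers summed to 1283, and those of Vehicle replicate 3 to 4521, against 18703 to 46723 elsewhere. In Vehicle replicate 3 the 2 lung markers on the panel summed to 14591, against 21.4 to 55.3 elsewhere. Results that rest on either library are given with and without both. Tissue was measured in bulk, so fewer cells of a type and less RNA per cell cannot be told apart.

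Levels of all 5 genes had their lowest arm median in vehicle tumours. Arms next to each other in the order of medians overlapped for every gene, vehicle and its neighbour included. With TMM factors in place of housekeeping scaling, 1 treated arm lay below vehicle for Cxcl1. Counts lay above background in 28 of 36 tumours for Cxcl1, 33 for Cxcl2, 28 for Cxcl3, 35 for Cxcl5 and 36 for Ppbp. Cxcl1 and Cxcl3 were therefore measured close to the background of the assay in many tumours. Each lay above background in 3 of 6 vehicle tumours, so their differences from vehicle are set against values near background. The members' sequences are related, and cross-hybridisation between their probes was not tested.

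**Figure D1:**
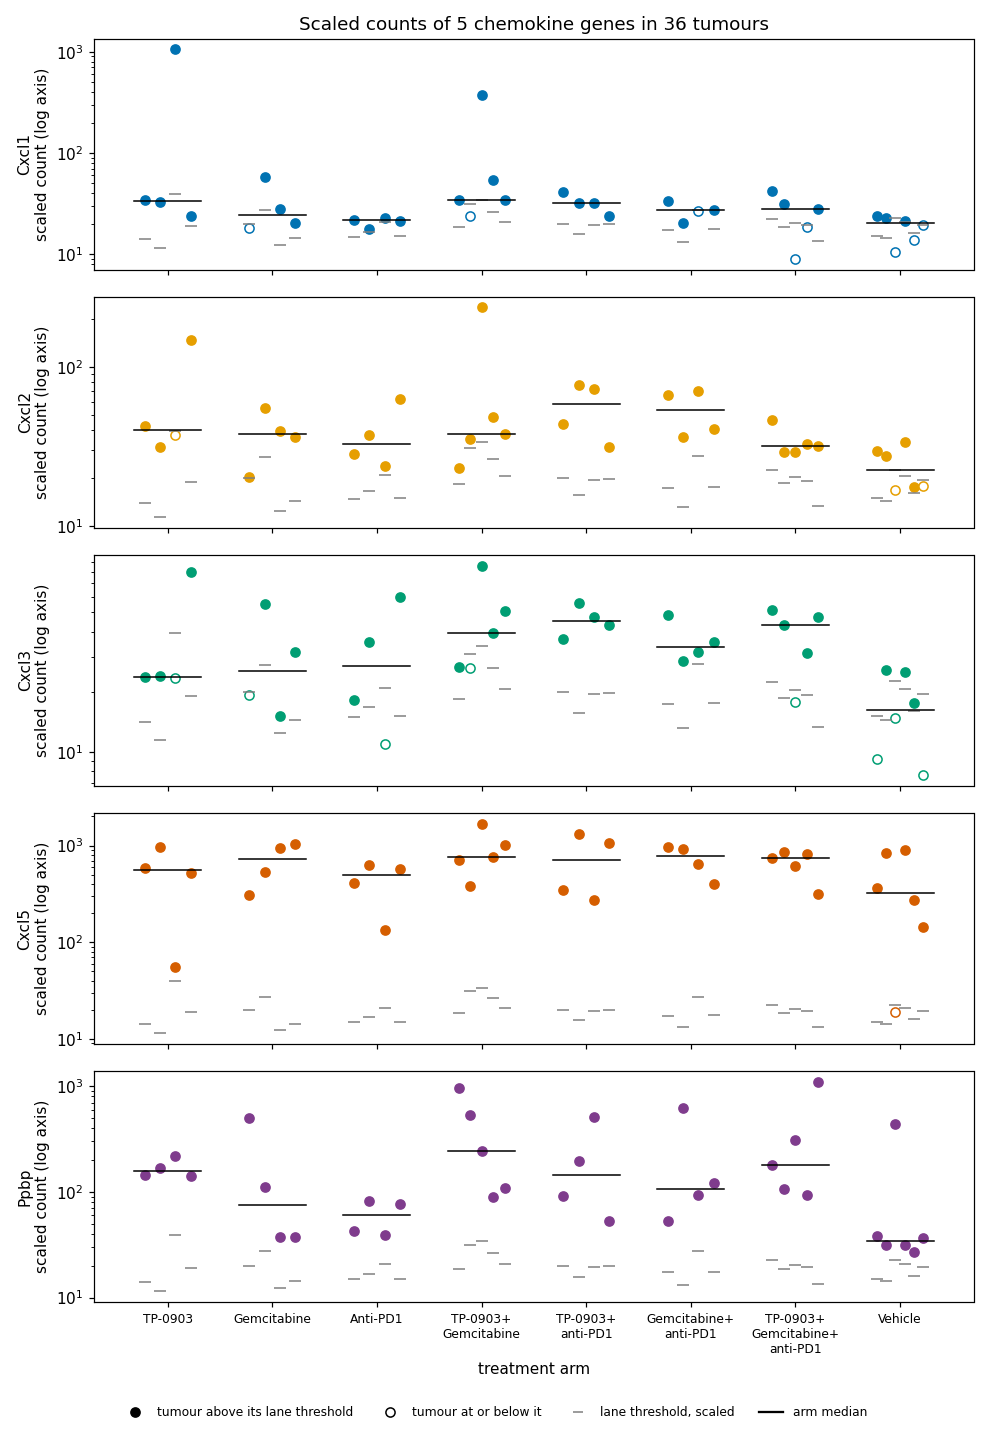
Scaled counts (log axes) of the 5 chemokine genes in each of 36 tumours, by treatment arm. Filled points lie above the lane threshold, open points do not, grey dashes are the scaled lane thresholds and black lines the arm medians; the vehicle median is the lowest for each gene, and Cxcl1 in 1 TP-0903 tumour (1057) and Ppbp in 1 vehicle tumour (442) stand far above the rest of their arms.

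Cxcl1, an early chemokine of epithelium and stroma, had 34.4, 33.1, 1057 and 24.1 scaled counts in TP-0903 tumours. It had 34.4, 23.7, 376, 53.6 and 34.3 scaled counts in TP-0903+Gemcitabine tumours. Vehicle tumours had a lowest value of 10.5, a median of 20.4 and a highest value of 23.7, and 3 of 6 lay above their lane threshold. Every TP-0903 tumour thus lay above every vehicle tumour, as did 1.02% of all tested genes, but 1 of the 4, the library with liver markers, held a level far beyond the rest. The 376 belonged to TP-0903+Gemcitabine replicate 3, whose liver markers summed to 3826. Anti-PD1 replicate 3 had a higher liver sum, 4504, and 22.9 scaled counts of Cxcl1.

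The median of Cxcl1 was 31.8 after TP-0903+anti-PD1, 27.7 after TP-0903+Gemcitabine+anti-PD1, 27.0 after Gemcitabine+anti-PD1, 24.1 after Gemcitabine and 21.6 after Anti-PD1. TP-0903+anti-PD1 tumours (24.1 to 41.0) lay above every vehicle tumour (10.5 to 23.7) and above every Anti-PD1 tumour (17.8 to 22.9). Of all tested genes, 1.32% stood so for TP-0903+anti-PD1 against Vehicle and 1.46% for TP-0903+anti-PD1 against Anti-PD1.

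Cxcl2, a chemokine of macrophages and stroma, had 42.8, 31.5, 37.3 and 147 scaled counts in TP-0903 tumours. It had 23.2, 35.5, 235, 48.1 and 37.7 scaled counts in TP-0903+Gemcitabine tumours. Vehicle tumours had a lowest value of 16.9, a median of 22.7 and a highest value of 33.97, so both TP-0903 arms overlapped vehicle. The highest medians were 58.3 after TP-0903+anti-PD1 and 53.5 after Gemcitabine+anti-PD1. Gemcitabine+anti-PD1 tumours, with 66.2, 36.2, 70.1 and 40.7 scaled counts, each lay above all vehicle tumours, as did 2.05% of all tested genes. Medians in the remaining arms were 37.9 after Gemcitabine, 32.9 after Anti-PD1 and 31.8 after TP-0903+Gemcitabine+anti-PD1.

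Cxcl3, a close relative of Cxcl2, had 36.7, 55.6, 47.7 and 43.3 scaled counts in TP-0903+anti-PD1 tumours. It had 26.6, 26.3, 86.0, 39.4 and 51.1 in TP-0903+Gemcitabine tumours. Gemcitabine+anti-PD1 tumours had 48.7, 28.6, 31.9 and 35.6. Vehicle tumours had a lowest value of 7.64, a median of 16.2 and a highest value of 25.6, below every tumour of those 3 arms. The share of all tested genes standing so was 1.32% for TP-0903+anti-PD1, 1.32% for TP-0903+Gemcitabine and 2.05% for Gemcitabine+anti-PD1. The 26.3, in TP-0903+Gemcitabine replicate 2, was below its lane threshold. Among vehicle tumours, 3 of 6 had Cxcl3 above the lane threshold. With the negative-control mean subtracted before scaling, the lowest TP-0903+Gemcitabine tumour was at 9.53 and overlapped vehicle, whose highest was 17.2. The lowest was then 26.0 after TP-0903+anti-PD1 and 17.9 after Gemcitabine+anti-PD1, still above vehicle. TP-0903 tumours had 23.7, 24.0, 23.6 and 79.4 scaled counts and overlapped vehicle. The medians of Cxcl3 were 43.3 after TP-0903+Gemcitabine+anti-PD1, 26.9 after Anti-PD1 and 25.5 after Gemcitabine, and these arms overlapped vehicle too.

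Cxcl5, the epithelial chemokine, had 586, 976, 55.02 and 522 scaled counts in TP-0903 tumours. Vehicle tumours had a lowest value of 19.0, a median of 321 and a highest value of 900. The lowest tumour of each of these arms was the library in which epithelial markers were low, TP-0903 replicate 3 and Vehicle replicate 3. Medians of the other arms ran between 494 after Anti-PD1 and 782 after Gemcitabine+anti-PD1, and no arm was clear of vehicle. Over 36 tumours Cxcl5 followed the summed epithelial markers with a Spearman rho of 0.45 (0.35 over 34 tumours, without those libraries). The marker list was Epcam, Cdh1, Krt18, Muc1 and Spp1, of which 4 were on the panel. Epcam and Cdh1 had vehicle medians of 1250 and 2540, against 38024 for the sum, so most of that sum came from other markers.

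Ppbp, the platelet chemokine, had 144, 168, 216 and 140 scaled counts in TP-0903 tumours. It had 956, 531, 241, 88.6 and 108 in TP-0903+Gemcitabine tumours. It had 179, 106, 309, 93.1 and 1103 in TP-0903+Gemcitabine+anti-PD1 tumours. Among vehicle tumours 5 lay between 26.8 and 38.3 scaled counts, and Vehicle replicate 3, the library with lung markers, held 442.

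Ppbp had 504, 111, 37.2 and 37.7 scaled counts in Gemcitabine tumours. The higher pair came from the cartridge that also held vehicle, and the lower pair from the next. Anti-PD1 tumours had 43.0, 82.2, 38.9 and 76.6, TP-0903+anti-PD1 tumours had 91.9, 195, 513 and 52.9, and Gemcitabine+anti-PD1 tumours had 52.5, 627, 93.4 and 120. Single tumours of several arms thus held levels several times those of their neighbours. Leaving out both libraries that stood apart, every tumour of 6 treated arms lay above every vehicle tumour. The share of all tested genes standing so was 4.1% for TP-0903, 0.878% for Anti-PD1, 2.78% for TP-0903+Gemcitabine, 2.49% for TP-0903+anti-PD1, 5.56% for Gemcitabine+anti-PD1 and 2.64% for TP-0903+Gemcitabine+anti-PD1. In Gemcitabine tumours 2 of 4 lay clear of that vehicle range.

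Each treated arm was set against the vehicle tumours to ask how far each regimen moved the chemokines. The 7 comparisons share the vehicle tumours, and their folds are therefore not independent. Fitted log2 folds were positive for 5 of 5 chemokines in every arm except Anti-PD1, where 4 of 5 were, and TMM or positive-control scaling left 3 of 5 in that arm. The median over the 5 genes was 1.18 after TP-0903, against 0.06 over all 683 tested genes. It was 0.73 after Gemcitabine (all genes -0.13), 0.16 after Anti-PD1 (-0.01), 1.64 after TP-0903+Gemcitabine (0.07), 1.09 after TP-0903+anti-PD1 (-0.04), 1.10 after Gemcitabine+anti-PD1 (0.05) and 0.65 after TP-0903+Gemcitabine+anti-PD1 (-0.08).

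In TP-0903 tumours the fitted log2 fold against vehicle was 3.91 ± 0.78 (SE) for Cxcl1, 1.43 ± 0.48 for Cxcl2, 1.18 ± 0.45 for Cxcl3, 0.33 ± 0.66 for Cxcl5 and 0.73 ± 0.89 for Ppbp. All tumours of this comparison came from 1 cartridge. With edgeR, 1 of the 5 genes (Cxcl1) had an adjusted p under 0.05, as did 4.83% of all tested genes (4.39% in the higher direction), and nothing is read from this count because the genes were chosen on levels that include this contrast. limma-voom called 0 of 5, and DESeq2 called 0 of the 3 for which it gave an adjusted p, which left out Cxcl1 and Cxcl3. DESeq2 gave none for Cxcl1 in any comparison. Without both libraries that stood apart, the log2 fold of Cxcl1 was 0.58 ± 0.59, and that of Ppbp was 2.19 ± 0.89. Without TP-0903 replicate 4 alone, the log2 fold was 0.63 for Cxcl2 and 0.50 for Cxcl3. Each of these folds thus rested to a large part on a single tumour.

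In TP-0903+Gemcitabine tumours the log2 fold against vehicle was 2.45 ± 0.73 for Cxcl1, 1.64 ± 0.47 for Cxcl2, 1.44 ± 0.42 for Cxcl3, 1.09 ± 0.62 for Cxcl5 and 1.94 ± 0.86 for Ppbp. None of the 5 was called by edgeR, against 0.439% of all tested genes. An unadjusted p under 0.05 was held by 4 of 5, and by 102 of all 683 tested genes. DESeq2 called 1 of 4, Cxcl2, against 0.878% of all tested genes, with no adjusted p for Cxcl1. Without TP-0903+Gemcitabine replicate 3, which held the highest Cxcl1, Cxcl2, Cxcl3 and Cxcl5 of its arm, the log2 fold was 0.96 for Cxcl1 and 0.58 for Cxcl2. Without both libraries that stood apart it was 2.33 ± 0.52 for Cxcl1 and 3.54 ± 0.85 for Ppbp, and these 2 of 5 were called, against 0.592% of all genes. With TP-0903+Gemcitabine replicate 3 left out as well, 0 of 5 and 0.0% of all genes were called. With the first digit of the sample title as a block, edgeR called 2 of 5, Cxcl2 and Cxcl3, against 1.9% of all genes. Nothing is read from these counts, since the genes were chosen on levels that include this contrast.

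The triple regimen, TP-0903+Gemcitabine+anti-PD1, gave log2 folds of 0.47 ± 0.74 for Cxcl1, 0.51 ± 0.47 for Cxcl2, 1.21 ± 0.43 for Cxcl3, 0.65 ± 0.62 for Cxcl5 and 1.83 ± 0.85 for Ppbp against vehicle. TP-0903+anti-PD1 gave 0.78 ± 0.78 for Cxcl1, 1.23 ± 0.49 for Cxcl2, 1.45 ± 0.45 for Cxcl3, 0.81 ± 0.66 for Cxcl5 and 1.09 ± 0.89 for Ppbp. Gemcitabine+anti-PD1 gave 0.52 ± 0.78 for Cxcl1, 1.14 ± 0.49 for Cxcl2, 1.10 ± 0.45 for Cxcl3, 0.79 ± 0.66 for Cxcl5 and 1.15 ± 0.89 for Ppbp. With 1 library left out, Ppbp ran between 0.77 and 3.44 after the triple regimen, lowest without replicate 5 of that arm. It ran between 0.18 and 2.69 after TP-0903+anti-PD1, lowest without replicate 3 of that arm, and between -0.18 and 2.76 after Gemcitabine+anti-PD1, where the sign turned without replicate 2 of that arm. Each highest value was without Vehicle replicate 3. Cxcl3 was above 1 in each of these 3 combinations, while the fold of Cxcl1 was close to or below its SE. edgeR called none of the 5 genes in them, against 0.878% of all tested genes for the triple regimen, 0.0% for TP-0903+anti-PD1 and 0.146% for Gemcitabine+anti-PD1. In each, 2 of 5 had an unadjusted p under 0.05. Of all 683 tested genes, 88, 73 and 72 had one, in the same order of arms. Nothing is read from the counts of chemokines here either.

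Gemcitabine alone gave log2 folds of 0.71 ± 0.77 for Cxcl1, 0.65 ± 0.49 for Cxcl2, 0.84 ± 0.45 for Cxcl3, 0.73 ± 0.66 for Cxcl5 and 0.77 ± 0.89 for Ppbp. Anti-PD1 alone gave 0.16 ± 0.78 for Cxcl1, 0.66 ± 0.49 for Cxcl2, 0.89 ± 0.45 for Cxcl3, 0.04 ± 0.66 for Cxcl5 and -0.74 ± 0.93 for Ppbp. In both arms 0 of 5 were called and 0 had an unadjusted p under 0.05, and edgeR called 0.0% of all tested genes in either. Without Gemcitabine replicate 1 the log2 fold of Ppbp after Gemcitabine was -0.71. Without Vehicle replicate 3 it was 2.38, so 1 tumour of either arm decided its sign or size. limma-voom called 0 of 5 in these arms, and DESeq2 0 of the 4 other than Cxcl1.

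**Figure D2:**
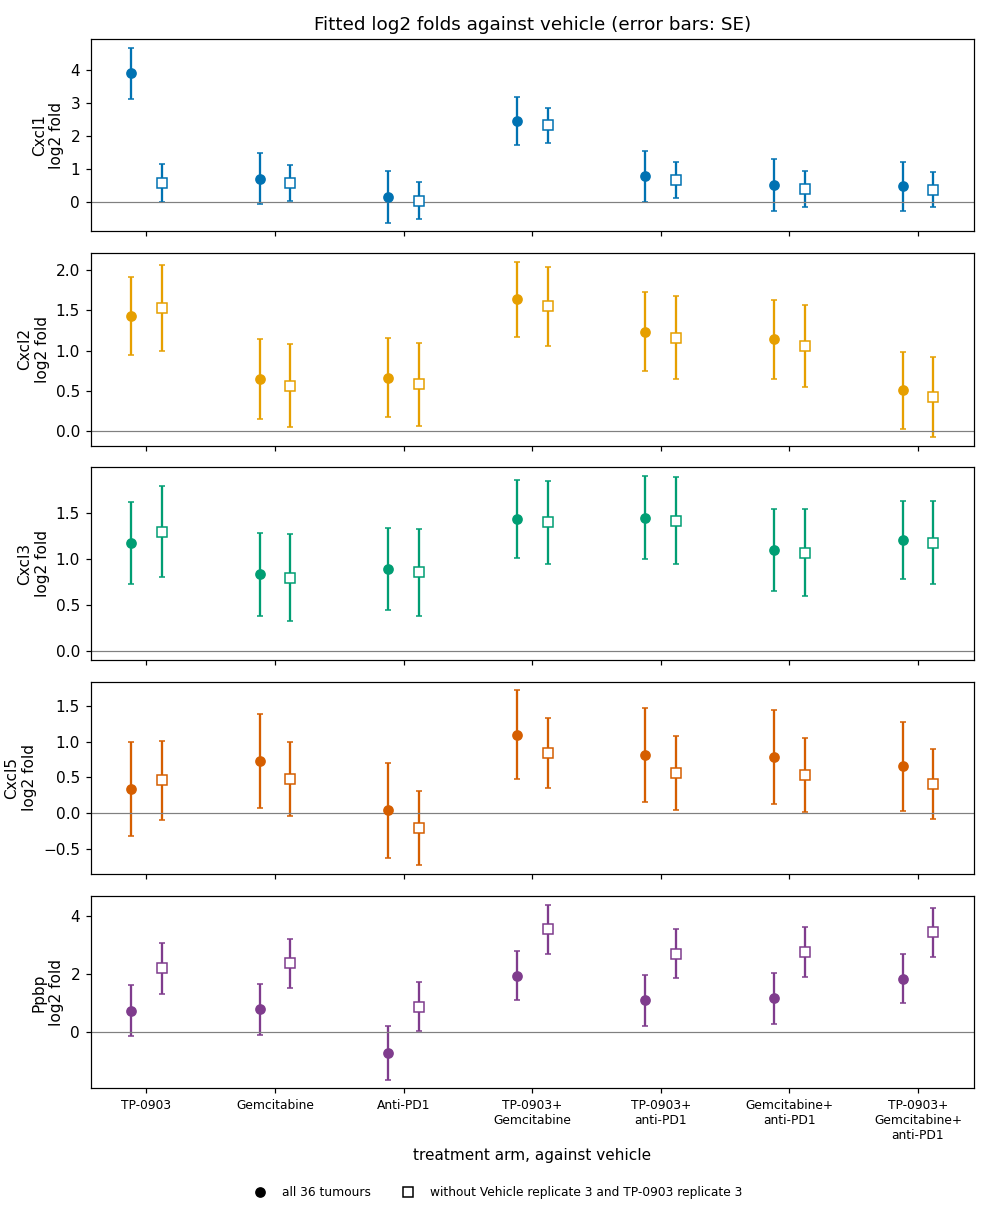
Fitted log2 folds of the 5 chemokine genes in each treated arm against vehicle (edgeR, error bars SE). Filled circles use all 36 tumours and open squares leave out Vehicle replicate 3 and TP-0903 replicate 3; Cxcl1 after TP-0903 stands at 3.91 with and 0.58 without these libraries, and Ppbp stands higher without them in every arm.

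Cartridge and arm were partly confounded, since 5 treated arms shared no cartridge with vehicle. With cartridge as a block, Cxcl5 had log2 folds against vehicle of -0.02 ± 0.84 after Gemcitabine, -1.20 ± 1.23 after Anti-PD1, -0.15 ± 1.20 after TP-0903+Gemcitabine, -1.52 ± 1.57 after TP-0903+anti-PD1, -1.785 ± 1.75 after Gemcitabine+anti-PD1 and -1.92 ± 1.74 after TP-0903+Gemcitabine+anti-PD1. The sign of Cxcl5 in these arms therefore turned with the block, with wide errors. Ppbp had log2 folds with the block of 1.61 ± 1.01 after Gemcitabine, 2.30 ± 1.62 after Anti-PD1, 4.97 ± 1.69 after TP-0903+Gemcitabine, 2.91 ± 1.90 after TP-0903+anti-PD1, 2.72 ± 2.17 after Gemcitabine+anti-PD1 and 3.40 ± 2.15 after TP-0903+Gemcitabine+anti-PD1. Cxcl1, Cxcl2 and Cxcl3 kept positive folds in all 7 arms, down to 0.02 ± 1.24 for Cxcl2 after the triple regimen. The block is estimated through the Gemcitabine and TP-0903+anti-PD1 arms alone, which lay in more than 1 cartridge.

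The effect of TP-0903 was also read within each of the other regimens, comparisons that share no tumours with each other. Added to Gemcitabine, TP-0903 went with log2 folds of 1.75 ± 0.83 for Cxcl1, 0.99 ± 0.52 for Cxcl2, 0.60 ± 0.47 for Cxcl3, 0.36 ± 0.69 for Cxcl5 and 1.16 ± 0.96 for Ppbp, with a median over the genes of 0.99 against 0.20 over all genes. Added to Anti-PD1, the log2 folds were 0.62 ± 0.87 for Cxcl1, 0.57 ± 0.54 for Cxcl2, 0.56 ± 0.49 for Cxcl3, 0.78 ± 0.73 for Cxcl5 and 1.83 ± 1.02 for Ppbp. Added to Gemcitabine+anti-PD1, where all tumours came from 1 cartridge, they were -0.04 ± 0.82 for Cxcl1, -0.63 ± 0.52 for Cxcl2, 0.11 ± 0.47 for Cxcl3, -0.14 ± 0.69 for Cxcl5 and 0.68 ± 0.94 for Ppbp. With housekeeping scaling and all libraries, TP-0903 thus went with positive folds for 5 of 5 genes on 3 backgrounds and for 2 of 5 on the background of both other agents. With positive-control scaling 3 of 5 were positive on Gemcitabine, and with TMM factors 3 of 5 were positive on Gemcitabine+anti-PD1. Without TP-0903+Gemcitabine replicate 3 alone, the log2 fold on Gemcitabine was 0.25 for Cxcl1, -0.07 for Cxcl2, 0.26 for Cxcl3 and 0.02 for Cxcl5, and that of Ppbp was 0.49 without replicate 1 of that arm. On Gemcitabine+anti-PD1, Ppbp ran between -0.39 without TP-0903+Gemcitabine+anti-PD1 replicate 5 and 2.01 without Gemcitabine+anti-PD1 replicate 2.

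edgeR called 0 of 5 genes, and 0.0% of all tested genes, in each of the 3 comparisons that added TP-0903 to another regimen. An unadjusted p under 0.05 was held by 1 of 5 on Gemcitabine, as by 53 of all 683 genes, and by 0 of 5 on the other 2. Such counts are a description of genes chosen on these levels. limma-voom called 0 of 5 as well, and DESeq2 0 of the 4 other than Cxcl1. With positive-control scaling the median over the genes was 0.03 on Gemcitabine, while the median over all genes was -0.47. Inside the second cartridge, Ppbp lay between 88.6 and 956 scaled counts in the 5 TP-0903+Gemcitabine tumours and at 37.2 and 37.7 in the 2 Gemcitabine tumours. Cxcl1 lay between 23.7 and 376 in those TP-0903+Gemcitabine tumours and at 28.1 and 20.2 in those Gemcitabine tumours.

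Averaged over the 4 backgrounds, the log2 fold with TP-0903 was 1.56 ± 0.41 for Cxcl1, 0.59 ± 0.26 for Cxcl2, 0.61 ± 0.23 for Cxcl3, 0.33 ± 0.35 for Cxcl5 and 1.10 ± 0.48 for Ppbp. Without the libraries that stood apart, it was 0.73 ± 0.29 for Cxcl1 and 1.47 ± 0.43 for Ppbp. edgeR called 0 of 5 in either case and 0.0% of all tested genes. An unadjusted p under 0.05 was held by 4 of 5 in either case, a description only, since the genes were chosen on these levels. It was held by 78 of 683 tested genes with all libraries and by 62 of 676 without those that stood apart. Without TP-0903+Gemcitabine replicate 3 alone, the average log2 fold of Cxcl2 was 0.33. With that library and those that stood apart left out, the median over the 5 genes was 0.36, against 0.61 with all libraries. With cartridge as a block, the average of Cxcl5 was -0.06 ± 0.43.

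**Figure D3:**
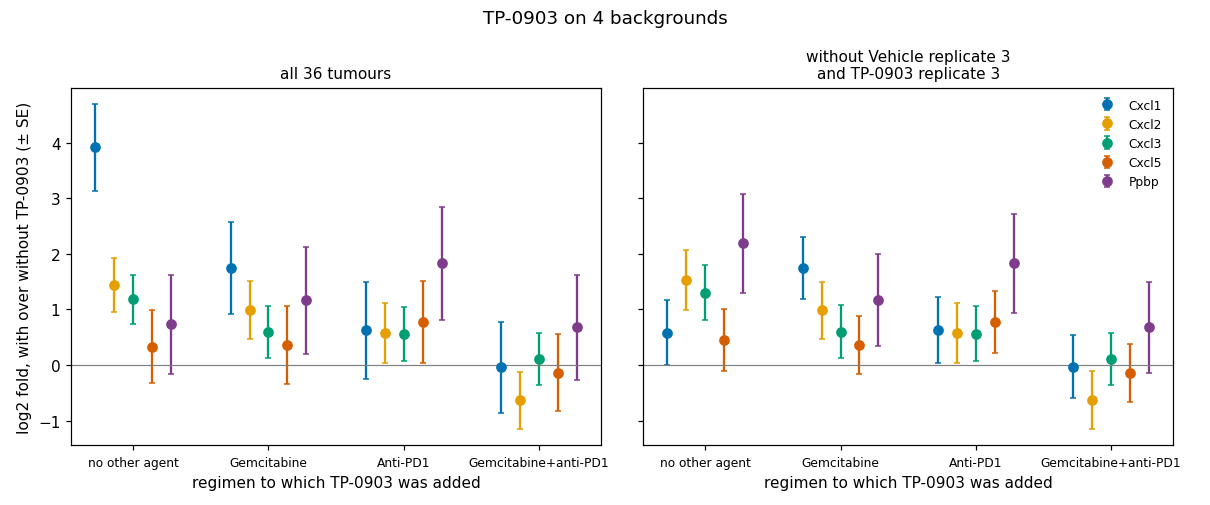
Fitted log2 folds (edgeR, error bars SE) of the 5 genes with over without TP-0903, for each of the 4 regimens it was added to, with all 36 tumours (left) and without Vehicle replicate 3 and TP-0903 replicate 3 (right). On no other agent, Gemcitabine and Anti-PD1 all 5 points lie above 0, and on Gemcitabine+anti-PD1 they lie between -0.63 and 0.68.

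Gemcitabine and the antibody were examined as average effects over 4 backgrounds. The levels that enter these contrasts are those on which the genes were chosen, so the values are a description and no p is given for a chemokine. With gemcitabine, the average log2 fold was -0.18 ± 0.41 for Cxcl1, 0.15 ± 0.26 for Cxcl2, 0.27 ± 0.23 for Cxcl3, 0.52 ± 0.35 for Cxcl5 and 1.15 ± 0.48 for Ppbp. That of Cxcl1 was 0.63 without TP-0903 replicate 3 and -0.55 without TP-0903+Gemcitabine replicate 3, so single libraries decided its sign. That of Cxcl2 was -0.11 without TP-0903+Gemcitabine replicate 3.

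Without Vehicle replicate 3 and TP-0903 replicate 3, the average log2 fold of Ppbp with gemcitabine was 1.59 ± 0.44. With 1 library left out at a time, it ran between 0.78 without Gemcitabine replicate 1 and 1.56 without Vehicle replicate 3. With cartridge as a block it was 1.69 ± 0.81. The value was thus positive in each of these settings, and its size followed single tumours.

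With the antibody, the average log2 fold was -1.28 ± 0.41 for Cxcl1, -0.04 ± 0.26 for Cxcl2, 0.30 ± 0.23 for Cxcl3, 0.03 ± 0.35 for Cxcl5 and -0.03 ± 0.47 for Ppbp. Without TP-0903 replicate 3 that of Cxcl1 was -0.48. With cartridge as a block Cxcl5 had -1.65 ± 1.17 and Ppbp 1.00 ± 1.40.

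The difference between the TP-0903 folds with and without the antibody was computed as an interaction, also as a description. Cxcl1 had the most negative interaction of TP-0903 with anti-PD1 among the 5 genes, -2.54 ± 0.82 on the log2 scale, and it was -0.87 ± 0.57 without the libraries that stood apart. Cxcl2 had -1.24 ± 0.51 and Cxcl3 -0.56 ± 0.47. With all libraries, the most negative interaction of TP-0903 with gemcitabine was that of Cxcl1, -1.41 ± 0.81. Without the libraries that stood apart, that of Cxcl1 was 0.26, the only positive 1 of the 5, and the lowest was -1.09. The sign for Cxcl1 thus turned with these libraries.

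The receptor and the signals that induce these chemokines were examined through 21 genes, 20 on the panel and 17 tested. Of these, 2 passed the test in a treated arm. Osm, a cytokine of myeloid cells related to interleukin 6, rose after TP-0903, with 29.8, 24.0, 57.0 and 61.7 scaled counts in TP-0903 tumours against a lowest value of 12.2, a median of 21.1 and a highest value of 33.1 in vehicle tumours. Its log2 fold was 0.96 ± 0.29 (edgeR adjusted p = 0.0495), 1 call among 17 genes where 4.83% of all tested genes were called. The groups overlapped, and the call was lost without TP-0903 replicate 3 (edgeR adjusted p = 0.517) and without any of TP-0903 replicate 4 or Vehicle replicates 1, 2, 4 and 5.

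Tnf, the gene of tumour necrosis factor, passed the edgeR test after TP-0903+Gemcitabine with housekeeping scaling. It had 35.2, 35.5, 73.7, 45.9 and 30.1 scaled counts in TP-0903+Gemcitabine tumours, against a lowest value of 14.8, a median of 18.2 and a highest value of 23.0 in vehicle tumours. The groups did not overlap, as for 1.32% of all tested genes. Tnf was above its lane threshold in 3 of 6 vehicle tumours. The log2 fold was 1.22 ± 0.27 (edgeR adjusted p = 0.0147), 1 call among 17 genes where 0.439% of all tested genes were called. Without TP-0903+Gemcitabine replicate 3, which also held the highest Cxcl1, Cxcl2 and Cxcl3 of its arm, the log2 fold was 0.97 ± 0.26 (edgeR adjusted p = 0.122). All TP-0903+Gemcitabine tumours lay on another cartridge than the vehicle tumours, and with cartridge as a block the log2 fold of Tnf was 1.48 ± 0.51 (edgeR adjusted p = 0.243). The call was also lost with TMM factors (1.10 ± 0.27, edgeR adjusted p = 0.0517), with positive-control scaling (0.43 ± 0.32, edgeR adjusted p = 0.296) and with limma-voom (adjusted p = 0.0821). The log2 fold of Tnf was 1.03 ± 0.28 after TP-0903+anti-PD1 (edgeR adjusted p = 0.0889) and 0.99 ± 0.28 after Gemcitabine+anti-PD1 (0.120). DESeq2 called it after TP-0903+anti-PD1 as well.

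Cxcr2, the receptor of all 5 chemokines on neutrophils, had 32.5, 36.7, 94.1 and 74.6 scaled counts in TP-0903+anti-PD1 tumours, against a lowest value of 21.3, a median of 29.3 and a highest value of 46.4 in vehicle tumours. The groups overlapped, and the log2 fold of Cxcr2 was 0.91 ± 0.35 (edgeR adjusted p = 0.359). With TP-0903 it averaged 0.22 ± 0.19 (edgeR adjusted p = 0.722). Cxcr1, the other receptor gene of the group, lay above background in 0 of 36 tumours and was thus not detected. Il1b, the gene of interleukin 1 beta, averaged -0.10 ± 0.26 on the log2 scale with TP-0903 (edgeR adjusted p = 0.958) and 0.23 ± 0.26 with gemcitabine (0.791). The median over the 17 genes against vehicle ran between 0.14 after the triple regimen (all genes -0.08) and 0.31 after TP-0903 (all genes 0.06).

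Neutrophil genes were examined beside the chemokines through 17 genes, of which 13 were on the panel and tested. Mpo and Elane, granule enzymes made by neutrophil precursors, were called higher by edgeR after TP-0903+Gemcitabine+anti-PD1, 2 of 13 genes where 0.878% of all tested genes were called. Mpo had 74.5, 32.9, 512, 40.1 and 1054 scaled counts in TP-0903+Gemcitabine+anti-PD1 tumours, against a lowest value of 7.39, a median of 9.69 and a highest value of 26.3 in vehicle tumours. Its log2 fold was 4.81 ± 1.10 (edgeR adjusted p = 0.0217), and the groups did not overlap, as for 1.17% of all tested genes. Mpo was above its lane threshold in 1 of 6 vehicle tumours, so this fold too is set against values near background. Elane had 28.8, 32.9, 228, 25.8 and 569 in TP-0903+Gemcitabine+anti-PD1 tumours and 7.22 to 17.9 in vehicle tumours, none of which was above its lane threshold. Its log2 fold, set against values at background, was 3.76 ± 0.95 (edgeR adjusted p = 0.0484).

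The call of Mpo after the triple regimen was lost without TP-0903+Gemcitabine+anti-PD1 replicate 5, which held the highest Ppbp of all tumours (edgeR adjusted p = 0.151), without replicate 3 of that arm (0.0703) and without Vehicle replicate 3 (0.0670). That of Elane was lost without either of those triple-arm tumours or any single vehicle tumour (edgeR adjusted p 0.0646 to 0.287). No neutrophil gene was called in the other 6 arms by edgeR, where between 1 and 9 of 13 had an unadjusted p under 0.05. Of all 683 tested genes, between 39 (Anti-PD1) and 102 (TP-0903+Gemcitabine) had one in these arms. DESeq2 called 6 of 13 after TP-0903+anti-PD1 and 2 of 13 after Gemcitabine, and limma-voom called 0.

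S100a8, a neutrophil alarmin, had 2497, 1452, 20616 and 2598 scaled counts in TP-0903+anti-PD1 tumours, against 167 to 1411 in vehicle tumours with a median of 476. Its log2 fold there was 3.36 ± 0.85 (edgeR adjusted p = 0.0763), and averaged over the backgrounds of TP-0903 it was 1.20 ± 0.44 (0.317). Over the 13 genes the median of the average log2 folds with TP-0903 was 0.69 (all genes 0.03), with 12 of 13 positive, 8 at an unadjusted p under 0.05 and 0 called by edgeR. Of all 683 tested genes, 78 had an unadjusted p under 0.05 in that contrast. Csf3r, the receptor of granulocyte colony-stimulating factor on neutrophils, was the exception in sign, with -0.01 ± 0.22 (edgeR adjusted p = 0.996). Over 36 tumours the summed neutrophil markers followed Ppbp with a Spearman rho of 0.72, Cxcl3 with 0.20, Cxcl1 and Cxcl2 with 0.09 each, and Cxcl5 with -0.09. These correlations describe tumours that share the same libraries and scaling. S100a8 had a vehicle median of 476, against 600 for the summed markers, and 20616 of 22738 in TP-0903+anti-PD1 replicate 3. Most of the sum thus came from this gene.

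Ppbp was set beside platelet genes, of which Itga2b and Itgb3, the chains of the platelet fibrinogen receptor, were on the panel. Itga2b was the gene most like Ppbp, with a Spearman rho of 0.88 over 36 tumours (0.86 over 34), followed by Mpo (0.84) and Camp (0.83), a granule peptide of neutrophils. The 7 tumours with the highest Ppbp (442 to 1103) had 68.3 to 219 scaled counts of Itga2b, and the other tumours had 7.11 to 58.3. Their neutrophil markers summed to 1646 to 22738, against 255 to 3788 in the other tumours, so these ranges overlapped. Their B cell markers summed to 272 to 388 in 6 tumours and to 122 in TP-0903+anti-PD1 replicate 3, against 42.5 to 228 in the other tumours. The median summed B cell level of an arm lay between 67.7 and 173. The part of these cell types in the Ppbp values was not tested.

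Itga2b was above background in 2 or 3 tumours of every treated arm and in 1 of 6 vehicle tumours, and in 5 vehicle tumours it lay between 7.11 and 15.3. Its average log2 fold was 0.72 ± 0.46 with TP-0903 (edgeR adjusted p = 0.641) and 1.00 ± 0.46 with gemcitabine (0.324). Itgb3, which other cells share, had 0.32 ± 0.25 with TP-0903 (edgeR adjusted p = 0.711) and -0.13 ± 0.25 with gemcitabine (0.863).

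**Figure D4:**
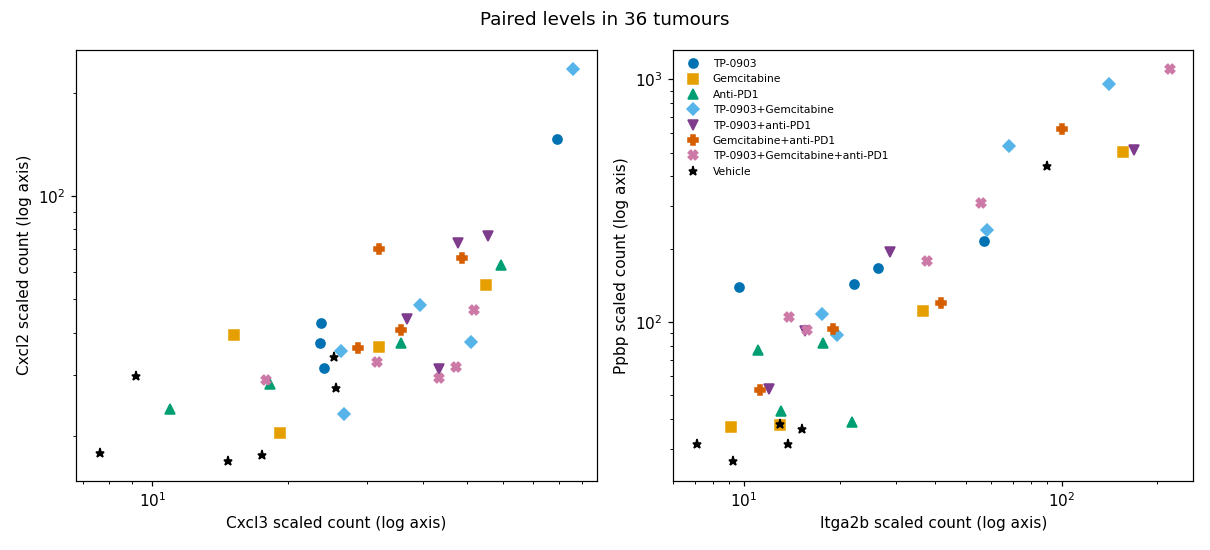
Scaled counts in 36 tumours on log axes, 1 point per tumour, marked by arm. Left, Cxcl2 against Cxcl3 (Spearman rho 0.75); right, Ppbp against Itga2b (rho 0.88), where tumours with Ppbp of 442 or more have Itga2b of 68.3 or more.

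The members did not move as 1 block across tumours. Cxcl2 and Cxcl3 were closest, with a Spearman rho of 0.75 over 36 tumours, 0.75 over 34 and a Pearson r of 0.70 after centring within arms. Cxcl1 followed Cxcl2 with a rho of 0.59 and Cxcl3 with 0.49, and Cxcl3 followed Cxcl5 with 0.44. Ppbp had a rho of 0.25 with Cxcl1 (0.32 over 34 tumours), 0.16 with Cxcl2 (0.25), 0.26 with Cxcl3 (0.36) and -0.12 with Cxcl5 (-0.01). After centring within arms over 36 tumours, its Pearson r was -0.52 with Cxcl5 and between -0.18 and -0.08 with the other 3 genes. The genes most like Cxcl2 were Ccl2 (0.61) and Ccl7 (0.60), which encode chemokines of monocytes, and Plau (0.58), the urokinase gene. The genes most like Cxcl3 were the same ones in another order, Plau (0.75), Ccl7 (0.65) and Ccl2 (0.63).

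Cxcl5 was most like Ccl20 (0.69), a chemokine gene of epithelium, followed by Cd9 (0.58), a tetraspanin, and Twist1 (0.58), a mesenchymal transcription factor. Cxcl1 was most like Saa1 (0.53), an acute-phase gene of liver and epithelium, Msr1 (0.51), a macrophage scavenger receptor, and Ifit1 (0.50), an interferon-induced gene. Without the library with liver markers and that with lung markers, Saa1 stood 13th and Ifit1 2nd among 678 genes for Cxcl1. Values of rho are over 36 tumours of all arms, which share libraries and 1 housekeeping scaling, and are a description.

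**Figure D5:**
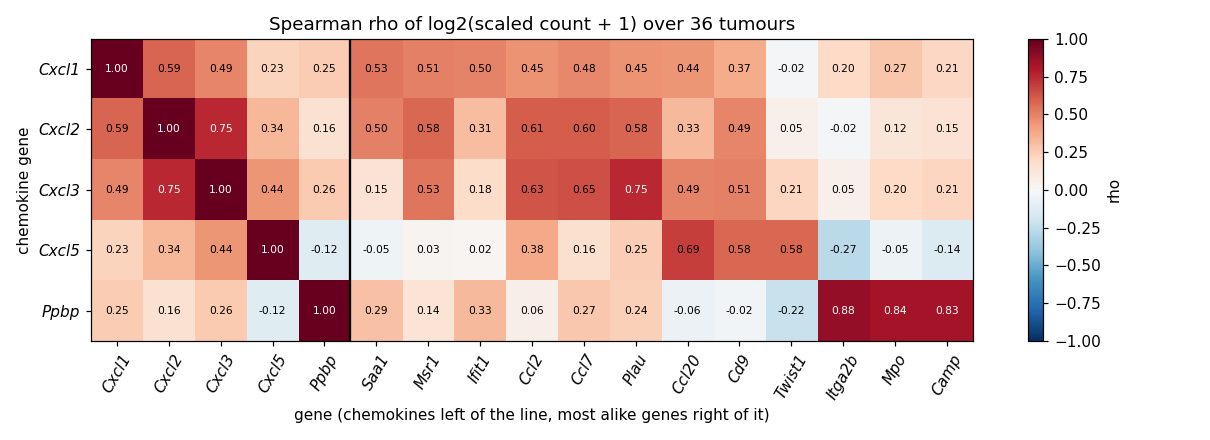
Spearman rho of log2(scaled count + 1) over 36 tumours between each chemokine gene (rows) and the other chemokine genes (left of the line) and the genes most like each (right of it). Cxcl2 and Cxcl3 share high values with Ccl2, Ccl7 and Plau, and Ppbp with Itga2b, Mpo and Camp.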

How the data were processed

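Per the file headers and the labels, the authors deposited a table of counts for 770 genes in 36 tumours and a lane report that holds counts beside other values (lane attributes such as the cartridge) and the control probes. The series' design text describes values normalized to positive controls and housekeeping genes, but the deposited table held raw counts, since 27720 of 27720 values were identical to the lane report. Counts were scaled by the geometric mean of 20 housekeeping genes in each lane, divided by its arithmetic mean over lanes. The build, aligner or other software used by the authors is not given in the sources used here.

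A gene was tested if, in 4 lanes or more, its count exceeded the mean of the negative controls by over 2 SD, which left 683 of 750 endogenous genes. All 36 libraries entered 1 fit of 8 arms with edgeR 4.0.16 (quasi-likelihood test, robust, two-sided; R 4.3.3, limma 3.58.1, pandas 2.3.3), with the Benjamini-Hochberg adjustment within each comparison over all tested genes and a threshold of 0.05. The common biological coefficient of variation was 0.477. The fit was tested on simulated data. An average effect is the mean of 4 contrasts, and an interaction is the difference between an agent's effects with and without the other agent. Total counts per lane had a median of 357262, and the part of depth in values near background was not tested. No 2 libraries of an arm were duplicates, the closest pair having a mean chi-square of 7.07 per gene.

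Alternatives were TMM factors, positive-control scaling, DESeq2 1.42.0, limma-voom, no filter, counts raised to the lane threshold, cartridge or the first digit of the sample title as a block, and libraries left out. The genes and gene lists were chosen with earlier results of these data known, and so were the libraries left out together. Since the chemokines were chosen on their levels in all arms, their folds and counts of calls are a description. Beyond the 5 chemokines, the text names Cxcr2, Il1b, Tnf, S100a8, Mpo and Csf3r, list genes called over all genes, platelet genes beside Ppbp, and the 3 genes with the highest Spearman rho to each chemokine. Promoter stretches are from RefSeq (GRCm38.p6), and matched 4 of 5 genes.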

Additional observations from a re-analysis of the deposited data

Results flagged for a closer look

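Distances between tumours were taken on log2(scaled count + 1) here. In 4 of the 40 sets formed by a chemokine gene and an arm, 1 tumour stood further from the others than Dixon's 95% critical value allows, where chance gives about 1 in 20 sets. The values printed below are scaled counts, on which the distances would differ. Cxcl1 had 1057 scaled counts in TP-0903 replicate 3, against 24.1 to 34.4 in the other TP-0903 tumours. That library held the summed liver marker level of 189755, and the part of liver tissue in its Cxcl1 was not tested. Ppbp had 442 scaled counts in Vehicle replicate 3, against 26.8 to 38.3 in the other vehicle tumours. That library held the summed lung marker level of 14591 and 89.6 scaled counts of Itga2b, and their part in its Ppbp was not tested. Cxcl3 had 79.4 scaled counts in TP-0903 replicate 4, against 23.6 to 24.0 in the other TP-0903 tumours. Cxcl2 had 46.7 scaled counts in TP-0903+Gemcitabine+anti-PD1 replicate 1, against 29.1 to 32.9 in the other tumours of that arm.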

How the results depend on the processing

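No paired analysis was possible because the labels give no replicate numbers that the arms share. Medians of the 5 chemokines' log2 folds are counted as moved where they shift by more than 0.66, the spread of the median level within arms. After TP-0903+Gemcitabine against vehicle, the median was 1.64, and it was 0.63 with positive-control scaling, 0.84 without Vehicle replicate 3, TP-0903 replicate 3 and TP-0903+Gemcitabine replicate 3 (a set chosen after seeing the data) and 0.96 to 1.81 with 1 library left out, lowest without TP-0903+Gemcitabine replicate 3. For TP-0903 added to Gemcitabine, main value 0.99, these were 0.026, 0.26 and 0.25 to 1.16, lowest without the same library. With cartridge as a block the median was 1.77 after TP-0903+anti-PD1 and 1.43 after the triple regimen, against 1.09 and 0.65 without it. No sign of a median turned in these cases.

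For the average effect of gemcitabine, 1 chemokine (Ppbp) was called without Vehicle replicate 3 and TP-0903 replicate 3, against 0 in the main fit. Of all tested genes, 2.51% were called without these libraries and 0.146% in the main fit. The count is given as a description since the genes were chosen on these levels. With TMM factors, 1 treated arm lay below vehicle for Cxcl1, against 0. The single receptor or inducer gene called after TP-0903 (Osm) had no adjusted p from DESeq2 and gave 0 calls with positive-control scaling, limma-voom, no filter, the cartridge block, either set of libraries left out, and 0 to 1 with 1 library left out. The 1 called after TP-0903+Gemcitabine (Tnf) gave 0 with TMM, limma-voom, the cartridge block and the 3 libraries left out, 3 other genes (Il1r1, Nfkbia and Rela) with positive-control scaling, and as low as 0 with 1 library left out. DESeq2 called 1 after TP-0903+anti-PD1, and positive-control scaling called 1 for the average effect of gemcitabine, each against 0.

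The 2 neutrophil genes called after the triple regimen became 5 with DESeq2, 1 with no filter or with counts raised to the threshold, 0 with limma-voom, either block or either set of libraries left out, and 0 to 4 with 1 library left out. Against 0 calls, there were 2 after Gemcitabine with DESeq2 and with the cartridge block, 6 after TP-0903+anti-PD1 with DESeq2 and up to 1 with 1 library left out, and for the average effect of gemcitabine 1 with positive-control scaling, 2 with DESeq2 and 1 without both libraries that stood apart. The cause of these changes was not tested. Subtracting the negative-control mean before scaling was also added after seeing the data. Of the values that answer a comparison 392 kept to their main value and 42 moved, and of those of single chemokines 513 and 52. The fold of a single chemokine counted as moved only beyond its spread within arms, from 0.70 for Cxcl3 to 1.34 for Ppbp. A main fold smaller than that could vanish or turn sign and still count as kept. Cxcl5 after Gemcitabine, with a spread of 1.21, turned to -0.02 with the cartridge block and counted as kept. These tallies therefore do not measure how firm a fold is. A reversed sign was looked for only in chemokines called in the main fit, that is, in Cxcl1 after TP-0903, and its sign did not turn. Calls of other genes were lost in several settings, as given above. Background limits Cxcl1 and Cxcl3 most, whose counts lay at background in 8 of 36 tumours each, and the part of depth in this was not tested.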
